A study of Mus musculus with 14 samples.

Results

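In mouse embryonic stem cells, 4823 promoters of protein-coding genes carried a called H3K4me3 region, but neither a called H3K27ac nor a called H3K27me3 region, before knockdown of Smarcb1. A promoter was the TSS ± 1 kb of a GENCODE gene on chromosomes 1 to 19 or X, and 1 bp of overlap with a called region counted. The 4823 were selected on the control lists of these 3 histone marks, and they made up 22.2% of 21755 promoters and 38.9% of the 12409 promoters with H3K4me3 in control. They belonged to 4817 distinct gene symbols, and 4133 regions were left after overlapping windows were merged. Their state in control is set by the rule, which fixed the absence of H3K27ac and H3K27me3 there, so that both marks could only be gained. The Smarca4 and Ezh2 lists and the lists made after knockdown were not used by the rule. "Not called" means that no region passed the submitters' threshold, not that the mark was absent.

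The cells were 81K1, a clonal mouse embryonic stem cell line based on OG2 that carries a conditional shRNA against Smarcb1. Control cells were untreated, and Smarcb1 kd cells received 1 µg/ml doxycycline and were taken 72 h after induction; both carry the same construct, so doxycycline itself and the knockdown cannot be told apart. ChIP-seq was made with 5 antibodies (H3K4me3, H3K27ac, H3K27me3, Smarca4 and Ezh2), and each antibody and condition had 1 library, which gave 10 lists of called regions. The other 4 of the 14 samples were inputs, not analysed here. The Smarcb1 level itself is not measured by these lists.

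H3K4me3 is the methylation that marks the start sites of active and poised genes, and most promoters rich in CpG carry it. H3K27ac and H3K27me3 are alternative states of the same lysine: acetylation accompanies active promoters and enhancers, and trimethylation is deposited by Polycomb repressive complex 2, of which Ezh2 is the catalytic subunit. Smarca4 is the ATPase of the BAF chromatin remodelling complex in embryonic stem cells, and Smarcb1 is a core subunit of that complex.

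The promoters on which the description turns are shown first. Each sequence is 300 bases of GRCm38.p6 (mm10), from 250 bases before the TSS to 50 bases from it on, read 5′ to 3′ on the strand of the gene. Capitals mark matches, on either strand, to 6 short motifs. The letters TATAAA stand for a core promoter box, GGGCGG stands for the box read by Sp factors, CCAAT is the box read by NF-Y, CCGGAAG is read by ETS factors, CACGTG is read by many basic helix-loop-helix factors, and GCATGCGC is read by NRF1. The first 3 promoters had the lowest SICER p of H3K27ac after knockdown, and the last 2 had H3K4me3 islands among the widest 3 of the promoters without H3K27ac after knockdown.
Cdt1, chr8:122567765-122568064, plus strand: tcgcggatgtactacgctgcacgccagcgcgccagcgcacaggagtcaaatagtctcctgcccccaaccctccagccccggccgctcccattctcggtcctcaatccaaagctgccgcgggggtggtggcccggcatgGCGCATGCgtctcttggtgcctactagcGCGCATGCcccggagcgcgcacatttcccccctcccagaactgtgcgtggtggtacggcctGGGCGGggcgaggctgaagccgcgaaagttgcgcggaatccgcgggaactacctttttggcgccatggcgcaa
Piezo1, chr8:122551280-122551579, minus strand: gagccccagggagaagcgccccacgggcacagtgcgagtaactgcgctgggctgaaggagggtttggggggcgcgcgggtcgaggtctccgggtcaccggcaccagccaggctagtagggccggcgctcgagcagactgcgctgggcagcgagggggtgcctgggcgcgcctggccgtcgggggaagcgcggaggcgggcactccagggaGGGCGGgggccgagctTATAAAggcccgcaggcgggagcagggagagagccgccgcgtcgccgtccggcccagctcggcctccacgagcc
Vmn1r48, chr6:90036792-90037091, minus strand: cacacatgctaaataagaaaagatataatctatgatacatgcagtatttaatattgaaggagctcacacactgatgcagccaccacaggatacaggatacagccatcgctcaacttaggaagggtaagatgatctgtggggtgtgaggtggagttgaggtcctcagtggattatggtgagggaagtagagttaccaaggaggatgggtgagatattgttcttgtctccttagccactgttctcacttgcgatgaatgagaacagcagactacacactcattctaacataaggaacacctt
Gm15319, chr8:20363161-20363460, minus strand: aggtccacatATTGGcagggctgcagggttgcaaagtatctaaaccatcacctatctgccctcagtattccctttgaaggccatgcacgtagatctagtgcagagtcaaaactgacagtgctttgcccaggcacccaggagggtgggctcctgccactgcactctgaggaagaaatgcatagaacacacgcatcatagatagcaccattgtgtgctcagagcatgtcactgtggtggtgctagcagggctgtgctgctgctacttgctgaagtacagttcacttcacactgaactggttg
Cchcr1, chr17:35516850-35517149, plus strand: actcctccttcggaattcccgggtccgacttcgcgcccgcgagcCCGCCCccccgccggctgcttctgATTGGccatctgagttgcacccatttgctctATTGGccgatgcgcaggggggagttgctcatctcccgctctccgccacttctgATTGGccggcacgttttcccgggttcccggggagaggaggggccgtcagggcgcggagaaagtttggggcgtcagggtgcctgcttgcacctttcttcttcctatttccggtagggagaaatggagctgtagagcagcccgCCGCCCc

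The 300 bases of Cdt1 held 32 CpG and those of Piezo1 held 34, whereas those of Vmn1r48 and Gm15319 held 2 each. The sequence of Cchcr1 held 25 CpG, so a CpG-rich promoter stood in both sets. The Gm15319 sequence occurred at 2 of the promoters read.

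The main change in the lists was in H3K27ac. After Smarcb1 kd, 2407 of the 4823 promoters had a called H3K27ac region, 49.9% (95% Wilson interval 48.5 to 51.3), against 20.2% of all 18255 promoters without H3K27ac in control. Promoters with H3K4me3 and H3K27me3 in control gained H3K27ac in 21.2% (20.0 to 22.5, 927 of 4367), those with H3K27me3 alone in 4.93% (146 of 2964), and those with none of the 3 marks in 3.36% (205 of 6101). Of the 3685 promoters that gained H3K27ac, 65.3% were in the class described here. The intervals cover counting error only. With 1 library per antibody and condition, no test between the conditions was possible, and promoters are not replicates of a condition.

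**Figure D1:**
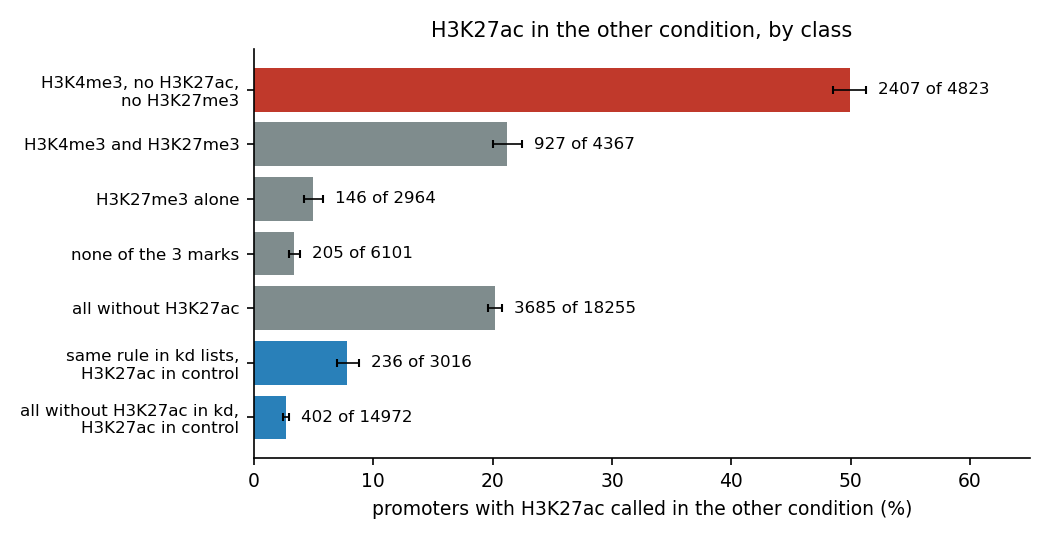
Share of promoters (x axis, %) with H3K27ac called in the other condition, for each class (y axis). Red marks the 4823 promoters, grey the other classes without H3K27ac in control, blue the rule applied in the opposite direction; bars carry 95% Wilson intervals, and 49.9% stands against 21.2% or less in the other classes.

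The same rule applied to the lists made after knockdown gave a class of 3016 promoters. Of these, 7.82% (236, 6.92 to 8.84) had H3K27ac in control, beside 2.69% of all 14972 promoters without H3K27ac after knockdown. The H3K27ac list was longer after knockdown, with 50700 regions against 38737, and 31.2% of all promoters overlapped it against 16.1% in control. When both conditions' lists were cut to equal length, 39.1% of the class gained H3K27ac, and the share of all promoters without it in control was 15.5%. The study's methods give an approximate depth per sample for the H3K27ac, H3K4me3 and Ezh2 libraries. The exact number of reads behind each list is unknown, and its part in the gain was not tested.

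A closer look at the gained islands showed mostly moderate p-values and a position over the start site. SICER gives each island a p-value against the background sample, and the submitters kept H3K27ac islands with p up to 1e-05. The median −log10 p of the gained islands was 12.4 (quartiles 8.48 and 18.7), whereas it was 25.6 after knockdown at promoters that carried both H3K4me3 and H3K27ac in control. Of the gained islands, 197 (8.18%) had p above 1e-06, and 1557 promoters (32.3% of the class) had an island with p of at most 1e-10. Gained islands had a median width of 2400 bp (quartiles 1600 and 3400). They covered the TSS itself in 83.5%, reached a median of 1080 bp upstream and 1192 bp downstream of it, and covered the whole window in 28.1%. Only 72 of the 2407 (2.99%) touched a control H3K27ac island outside the window.

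**Figure D2:**
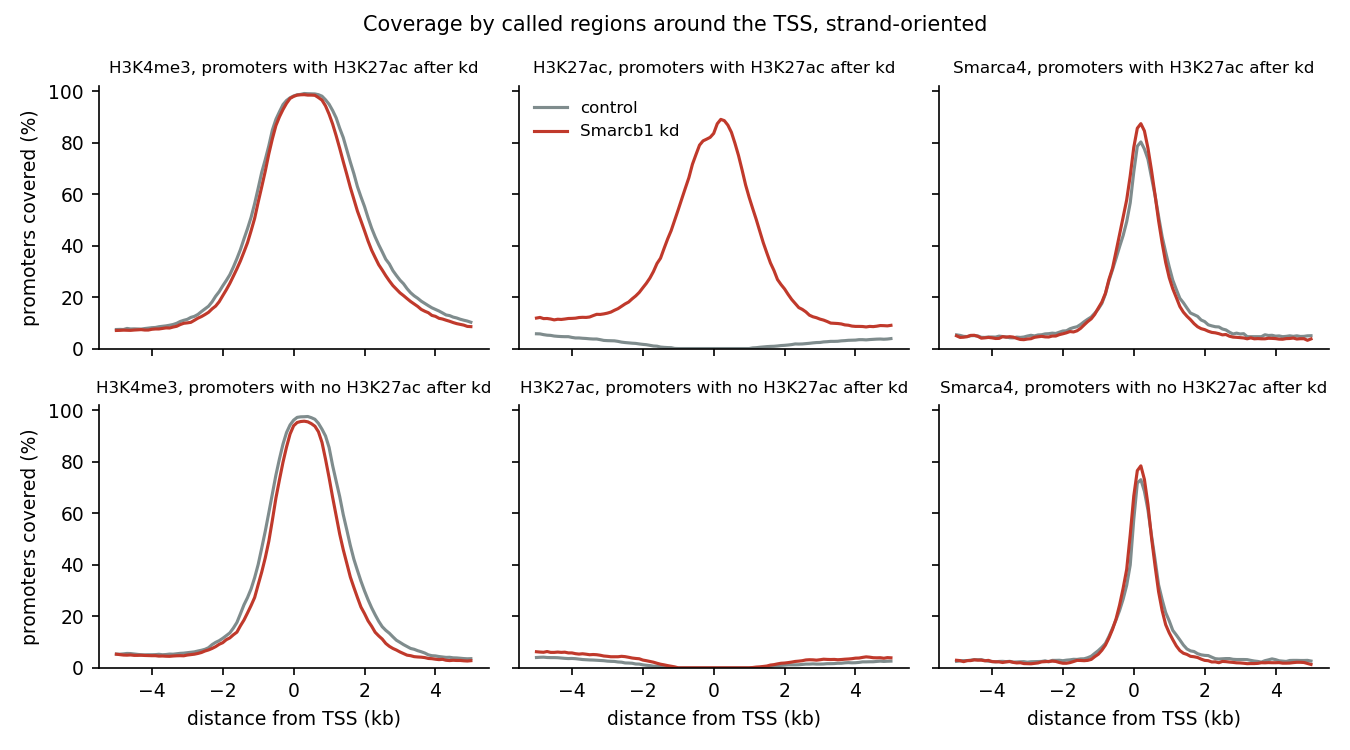
Share of promoters (y axis, %) covered by a called region at each distance from the TSS (x axis, kb, downstream positive), in control (grey) and after Smarcb1 kd (red), for the 2407 promoters with H3K27ac after knockdown (top) and the 2416 without (bottom). Coverage by gained H3K27ac peaked at 89.0% 200 bp downstream of the TSS, close to the peaks of H3K4me3 and Smarca4; the control line is at 0 over the window because the rule set it so.

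Promoters close to the limits of the rule were looked at separately. A control H3K27ac island lay 1 to 200 bp outside the window at 22 of the 4823 promoters, and 16 of these (72.7%) had H3K27ac after knockdown. Just inside, 21 promoters with H3K4me3 and H3K27ac in control had only 1 to 200 bp of the window in the island, and 14 of them (66.7%) were called after knockdown. Among the 482 promoters with the weakest H3K4me3 p in control, 120 (24.9%) gained H3K27ac.

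Calls of the other antibodies differed at fewer of the promoters. H3K4me3 was called again at 4763 of the 4823 promoters and lost at 60 (1.24%, compared with 1.38% of all H3K4me3 promoters). H3K27me3 was gained at 199 (4.13%, compared with 3.72% of all promoters without it in control). Ezh2 was gained at 27 of 4814 (0.561%, compared with 6.28% of all promoters without it in control), and the 9 promoters with Ezh2 in control all lacked it after knockdown (compared with 3.96% of all promoters with Ezh2 in control). Promoters with H3K4me3 and H3K27ac in control were close in H3K4me3, lost at 1.09%, and in Ezh2, gained at 0.479% and lost at 7 of 8. H3K27me3 was gained less often there, at 1.64% (48 of 2932, 1.24 to 2.16). In terms of the 3 marks, 2345 promoters (48.6%) carried H3K4me3 and H3K27ac after knockdown, 2226 (46.2%) kept H3K4me3 alone, 135 (2.80%) carried H3K4me3 and H3K27me3, 57 carried all 3 marks and 48 carried none.

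**Figure D3:**
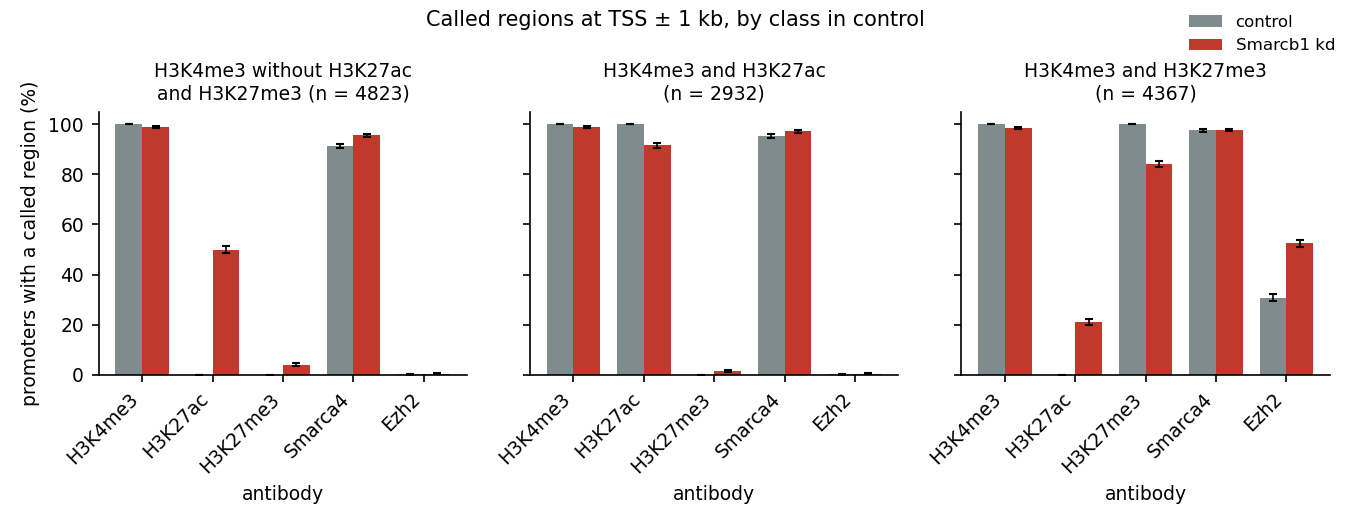
Share of promoters (y axis, %) with a called region of each antibody (x axis) in control (grey) and after Smarcb1 kd (red), for 3 classes set by the control lists; bars carry 95% Wilson intervals. In the left panel H3K27ac stands at 49.9% after knockdown while H3K4me3, H3K27me3 and Ezh2 stand within a few percent of control; values of 0 and 100 in control follow from the rule.

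Smarca4, which the rule did not use, was called at most of these promoters in both conditions. It was present at 4394 of 4823 in control (91.1%, 90.3 to 91.9) and at 4610 after knockdown (95.6%). Promoters with H3K4me3 and H3K27ac had it in 95.1% and 97.2%, and those with H3K4me3 and H3K27me3 in 97.5% and 97.7%. Peaks were shared at 4330 promoters, found in control only at 64, after knockdown only at 280, and in neither list at 149. Of the 429 promoters without Smarca4 in control, 65.3% had it after knockdown; over all promoters without it the share was 10.1%, and in the 2 other H3K4me3 classes it was 61.5% and 64.2%. Loss was seen at 1.46% of 4394, beside 4.31% of all promoters with Smarca4 in control.

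Scores of 1 library are not on the scale of another, so shared Smarca4 peaks were placed by their percentile within their own list. The lists held 78960 peaks in control and 72126 after knockdown, so a percentile can differ between them without a difference in binding, and the values are ranks only. The median percentile was 83.2 in control and 84.4 after knockdown, and the percentile was higher in the knockdown list at 55.3% of the 4330 shared promoters, beside 47.1% of all 13116 promoters with Smarca4 in both lists. The share was 57.6% where H3K27ac was gained and 52.9% where it was not. It was 63.2% at promoters with H3K4me3 and H3K27ac, and 32.2% at those with H3K4me3 and H3K27me3. Smarca4 and H3K27me3 were precipitated by a company and the other antibodies in the submitters' laboratory, so laboratory and antibody cannot be told apart.

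Promoters with and without gained H3K27ac differed in Smarca4 state. With Smarca4 in both conditions, 52.6% gained H3K27ac (2278 of 4330, 51.1 to 54.1). The share was 31.8% (89 of 280, 26.6 to 37.5) with Smarca4 after knockdown only, 20.1% (30 of 149, 14.5 to 27.3) with neither and 15.6% (10 of 64, 8.71 to 26.4) with Smarca4 in control only. Median H3K4me3 island widths in these 4 groups were 3200, 2400, 2200 and 2200 bp, and median CpG observed/expected ratios were 0.63, 0.50, 0.35 and 0.43, so the groups differed in more than Smarca4. In the narrowest quintile by H3K4me3 width, Smarca4 was called in control at 90.2% of gaining and 80.5% of other promoters. In the next quintiles the shares were 95.9% and 91.0%, 94.1% and 92.4%, and 96.8% and 92.2%. In the widest quintile they were 96.0% and 89.3%.

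Width of the control H3K4me3 island separated gaining promoters most widely of the 6 features examined. The share with H3K27ac after knockdown was 24.5% for islands of 400 to 2200 bp, 40.6% for 2400 to 2800 bp, 57.4% for 3000 to 3400 bp, 61.3% for 3600 to 4600 bp and 77.3% for islands from 4800 bp upwards. Median widths were 3600 bp with and 2600 bp without gained H3K27ac. Similar gradients were found for the H3K4me3 p-value (29.8% in the weakest quintile, 74.5% in the strongest), for GC content of the window (30.4% to 69.9%) and for the CpG observed/expected ratio (32.4%, 41.5%, 51.7%, 58.0% and 66.0%). The gradient for distance to the nearest control H3K27ac island was shallow, from 57.2% in the closest to 45.5% in the farthest quintile, and the share in the quintiles by repeat content lay between 46.7% and 56.6%. These features are related to each other, and width and p come from the same H3K4me3 library.

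**Figure D4:**
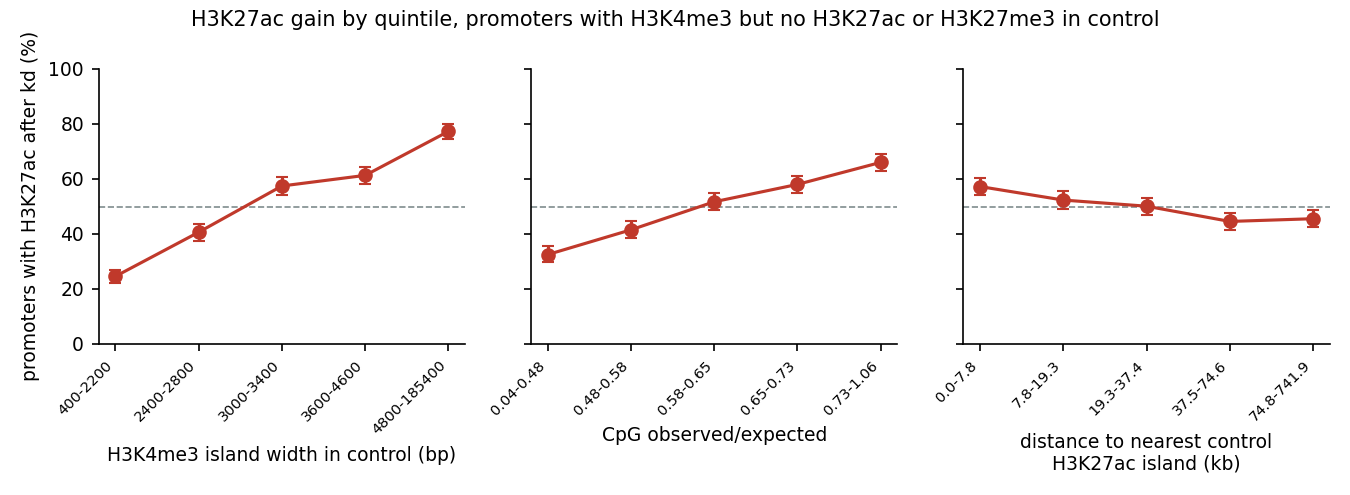
Share of the 4823 promoters with H3K27ac after Smarcb1 kd (y axis, %) in quintiles by H3K4me3 island width (bp), CpG observed/expected ratio and distance to the nearest control H3K27ac island (kb), with 95% Wilson intervals; the dashed line is 49.9%. The share runs from 24.5% to 77.3% over width and from 57.2% to 45.5% over distance.

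Width and CpG content were also crossed at their medians of 3000 bp and 0.62. Among promoters with an island of up to 3000 bp, 29.9% (476 of 1594) gained H3K27ac at the lower CpG ratio and 42.4% (387 of 912) at the higher one. With wider islands, the shares were 58.6% (479 of 818) and 71.0% (1065 of 1499). Each feature therefore kept its direction within both levels of the other.

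The H3K4me3 islands themselves were mostly narrower after knockdown, at 2978 of 4763 promoters (62.5%), with a median difference of −400 bp. The share was 61.7% with and 63.4% without gained H3K27ac, 63.6% at promoters with H3K4me3 and H3K27ac, and 56.9%, with a median difference of −200 bp, at those with H3K4me3 and H3K27me3. Median −log10 p of these islands was 128 in control and 184 after knockdown, so the islands were narrower but had lower p-values in that library. Another protein-coding TSS on the opposite strand lay within the window at 15.9% of the promoters, at 16.8% of those with and 14.9% of those without gained H3K27ac. Such neighbours share their reads and are not independent.

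Short sequence matches in the 300 bases differed little between gaining and other promoters of the class. GGGCGG was found in 64.5% and 60.5% (all promoters, 43.4%), CCGGAAG in 24.6% and 22.5% (10.9%), GCATGCGC in 7.35% and 6.13% (3.40%), CACGTG in 11.1% and 9.19% (7.81%) and TATAAA in 6.48% and 6.42% (12.7%). CCAAT went the other way, with 40.1% at gaining and 46.4% at other promoters (38.9%). Promoters with H3K4me3 and H3K27me3 held CCGGAAG, the ETS motif, in 6.94%, against 23.6% in the class described here and 22.4% with H3K4me3 and H3K27ac. A match is a description of the letters, not a binding site.

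The promoters with the lowest H3K27ac p after knockdown included a pair on chromosome 8. Cdt1, which licenses DNA replication, and Piezo1, a mechanically activated ion channel, lay under the same H3K27ac island of 19800 bp (chr8:122550001-122569800, −log10 p of 235), which covered both windows in full. In control, Cdt1 had an H3K4me3 island of 15200 bp. Its Smarca4 scores were 347 in control and 616 after knockdown. Here and below, each score is on the scale of its own library. Piezo1 had an H3K4me3 island of 8600 bp and Smarca4 scores of 868 and 925. The nearest control H3K27ac islands were 36586 bp and 23729 bp outside their windows, and both sequences above are rich in CpG.

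Vmn1r48, a vomeronasal receptor gene whose sequence is poor in CpG, was next (−log10 p of 136). Here the called island overlapped only 160 bp at the edge of the window, and a control H3K27ac island lay 41 bp outside it, so the annotated TSS was not covered. Nek8, a kinase of the cilium, and Tlcd1 start on opposite strands of chromosome 11 and shared an island of 16400 bp (−log10 p of 126). At Pgs1, an enzyme of cardiolipin synthesis, the island of 13000 bp ended upstream of the TSS. All H3K27ac islands together covered 1201 bp of the Pgs1 window, and a control H3K27ac island lay 292 bp away. Csrnp1 had an island of 3000 bp (−log10 p of 107), with H3K4me3 of 4600 bp and Smarca4 scores of 481 and 345. Plekha7, a protein of adherens junctions, had islands of 11200 bp for H3K27ac (−log10 p of 101) and, in control, 5600 bp for H3K4me3. Polr2e, a subunit shared by the nuclear RNA polymerases, had an H3K27ac island of 10600 bp (−log10 p of 93.2). Ttc39b had one of 7800 bp (−log10 p of 86.5) that reached only the edge of the window and not the TSS. All islands together covered 655 bp of the Ttc39b window. Control H3K27ac islands lay inside the gained islands at Nek8, Tlcd1, Polr2e and Ttc39b, 3926, 3890, 2806 and 546 bp outside the windows, respectively. At Csrnp1 and Plekha7 the nearest lay 15743 and 18025 bp outside. Of these 10 promoters 9 had Smarca4 in both lists, and Vmn1r48 had it after knockdown only.

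At 5 promoters H3K27ac was gained while H3K4me3 was lost. These were Gm10131, the zinc finger gene Zfp981, the potassium channel gene Kcnu1, the metalloprotease gene Mep1b and Pramef12. Their CpG ratios lay between 0.19 and 0.35, below the median of the class. At Gm10131 the control H3K4me3 island reached only 64 bp into the window, and at Zfp981 there was an H3K4me3 island of 39800 bp in control and an H3K27ac island of 6000 bp after knockdown (−log10 p of 6.90). Kcnu1 had the lowest H3K27ac p of the 5, with −log10 p of 32.3, and Smarca4 after knockdown only.

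Promoters without gained H3K27ac included the widest H3K4me3 islands of the class. Gm15319, whose sequence is shown above, and 4930467E23Rik lay on chromosome 8 under control H3K4me3 islands of 185400 bp and 123600 bp. They are near-identical copies, so their calls are uncertain. At both, H3K4me3 was not called after knockdown, and no other antibody was called in either condition. Cchcr1 had an H3K4me3 island of 21600 bp in control and of 3400 bp after knockdown, with no Smarca4 in either list.

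Smarca4 differed between the lists at a few named promoters. The highest scores after knockdown only were at Wdr1, an actin regulator (251), Ndufb2, a subunit of respiratory complex I (243), Vmn1r48 (242), and Rps2 and Rnf151 (207, under 1 shared peak). All 5 gained H3K27ac. The peak had 48 bp inside the window at Wdr1, 56 bp at Vmn1r48, 374 bp at Rps2 and 321 bp at Rnf151, whereas at Ndufb2 it lay inside with 1024 bp. The highest scores in control only were at Tmbim1 (388), Ggta1, a glycosyltransferase (181), the small GTPase Rap2b (171), the glutaredoxin Glrx (136) and Prelid1 (124). The peaks at Tmbim1, Rap2b and Prelid1 had 88, 99 and 25 bp inside the window. Those at Ggta1 and Glrx also ran over its edge, and all control peaks together covered 501 and 372 bp there. Of these promoters, Tmbim1, Ggta1 and Rap2b gained H3K27ac, while Glrx and Prelid1 did not.

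H3K27me3 was gained at 4.13% of the promoters, near the 3.72% of all promoters without it in control. Ezh2 was gained at 0.561%, beside 6.28% of all promoters without it. H3K27me3 was gained with the lowest p at Trappc1, a vesicle tethering subunit, and Klhl26 (both with a p listed as 0), then at Sbf2 (−log10 p of 307), Zfp287 (−log10 p of 264) and Nars2, the mitochondrial asparaginyl-tRNA synthetase (−log10 p of 157). At 4 of these the island covered the edge of the window, with 180, 168, 522 and 496 bp at Trappc1, Klhl26, Sbf2 and Nars2, and at Zfp287 it covered the whole window. H3K27me3 gain was recorded at 57 promoters (2.37%) with and 142 (5.88%) without gained H3K27ac, and both marks together were called at 57 of the 199 promoters that gained H3K27me3.

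Ezh2 after knockdown coincided with H3K27me3 at 16 of 27 promoters. The highest scores were at Ssbp2 (300), the syntaxin gene Stx3 (160), the desmosome gene Perp (145), Bend5 (132) and Agrn, which encodes agrin (124). Stx3, Perp, Bend5 and Agrn also gained H3K27me3, with islands of 6000, 7800, 7800 and 4800 bp, whereas Ssbp2 did not, and its peak covered 51 bp of the window. In the control list, the highest of the 9 Ezh2 scores were 100 at AU015836 and 87 at Tkt, which encodes transketolase, followed by Rsg1 (83), Suds3 (68) and Setmar (60). Ezh2 was called at 1341 (30.7%) of the promoters with H3K4me3 and H3K27me3 in control and at 2291 (52.5%) after knockdown.

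Gene lists, set by symbol, were described by their counts, to be read beside 49.9% over the whole class. Cytosolic ribosomal proteins, splicing factors and the transcription machinery had shares above it. Of 83 cytosolic ribosomal protein genes with H3K4me3 in control, 55 also carried H3K27ac, 22 were in the class, and 20 of these (90.9%, 72.2 to 97.5) gained H3K27ac. Rpl10a had a gained island of 3000 bp (−log10 p of 41.8) and Rpl32 one of 2000 bp (−log10 p of 32.1). Rpl18 and Rpl22l1, named here after their values were seen, did not gain it. Splicing factors gained H3K27ac at 22 of 30 promoters (73.3%), among them Lsm3 and Lsm4, and subunits of RNA polymerases, general transcription factors and Mediator at 37 of 57 (64.9%), among them Gtf2b and Gtf2e1. The median H3K4me3 width of the 22 ribosomal protein promoters was 6200 bp, beside 3000 bp over the class.

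Cyclins, Cdks and replication genes gained H3K27ac at 24 of 35 promoters (68.6%, 52.0 to 81.4), with islands of 8400 bp at Ccnd1 (−log10 p of 26.7) and 2600 bp at Ccne2 (−log10 p of 23.3). Ubiquitin pathway genes gained it at 31 of 48 (64.6%), and histone and DNA modifying enzymes at 12 of 23 (52.2%, 33.0 to 70.8), among them the H3K9 methyltransferase Ehmt1 (−log10 p of 42.4). Of 28 BAF subunit genes with H3K4me3, 6 were in the class and 5 gained H3K27ac: Smarcc1 (−log10 p of 25), Smarcd1 (−log10 p of 29.1), Brd9 and Bcl7c are examples, and Dpf1, named after its values were seen, did not. Smarcb1, Smarca4 and Ezh2 themselves were not in the class, because they carried H3K27ac in control.

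A further 7 lists had shares between 45.1% and 51.9%. Mitochondrial ribosomal proteins gained H3K27ac at 21 of 45 promoters (46.7%), respiratory chain and ATP synthase subunits at 26 of 54 (48.1%), proteasome subunits at 9 of 19 (47.4%), aminoacyl-tRNA synthetases at 10 of 21 (47.6%), DNA repair genes at 11 of 24 (45.8%), vesicle traffic and autophagy genes at 41 of 91 (45.1%) and solute carriers at 40 of 77 (51.9%). Respiratory chain genes belonged to the class in 65.1% of those with H3K4me3, compared with 38.9% of all H3K4me3 promoters. All 54 of them had Smarca4 after knockdown, and 49 had it in control.

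Zinc finger and cilium genes stood below the share of the class. Genes named Zfp, Zkscan or Zscan gained H3K27ac at 72 of 191 promoters (37.7%, 31.1 to 44.7) and had a median H3K4me3 width of 2400 bp and a CpG ratio of 0.49. Zfp110 was among those that gained it (−log10 p of 19.2), with Smarca4 scores of 57 and 101. Cilium and intraflagellar transport genes gained it at 35 of 90 (38.9%, 29.5 to 49.2), for example at the Bardet-Biedl genes Bbs4 and Bbs5 (−log10 p of 6.12 and −log10 p of 8.13). Both lists were common in the class, with 51.8% and 60.8% of their H3K4me3 promoters in it.

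Developmental genes were rare in the class, since most carried H3K27me3 in control. Of 109 developmental transcription factor genes with H3K4me3, 97 had H3K27me3 as well and 6 were in the class, of which 5 gained H3K27ac. Foxh1, a cofactor of Nodal signalling (−log10 p of 30.4), and Foxp4 (−log10 p of 35.2) were among them, and Foxk2, named after its values were seen, did not gain it. Core and naive pluripotency factors were also mostly elsewhere: 11 of 18 carried H3K27ac in control, and Pou5f1, Sox2 and Nanog were among these. In the class, Lin28a (−log10 p of 25.1, H3K4me3 of 12200 bp) and Tfcp2l1 (−log10 p of 19.3, H3K4me3 of 8800 bp) gained H3K27ac, and Nr0b1, named after its values were seen, did not. Ion channel and neurotransmitter receptor genes gained it at 3 of 12 promoters, Cacng7, Clcn2 and Kcnu1. The lists of germline genes (3 of 3, Hsf2bp, Syce2 and Tex10) and of cadherins and integrins (2 of 2, Itga5 and Itgb1bp1, the latter an integrin-binding protein) held too few promoters to read a share from.

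The share of promoters that gained H3K27ac differed between chromosomes. It was highest on chromosome 8, at 66.3% (183 of 276, 60.5 to 71.6), where the median H3K4me3 width was 4400 bp, and lowest on chromosome X, at 25.5% (51 of 200, 20.0 to 32.0), where Smarca4 was called at 66.5% in control and 80.5% after knockdown. The other chromosomes lay between 35.8% on chromosome 13 and 59.5% on chromosome 19. Promoters with H3K4me3 and H3K27me3 on chromosome 8 gained H3K27ac in 41.8%, and those on chromosome X in 7.22%, so the same 2 chromosomes were the extremes there. Without chromosome 8 the share over the class was 48.9%, without chromosome X 51.0%, and without both 50.0%.

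**Figure D5:**
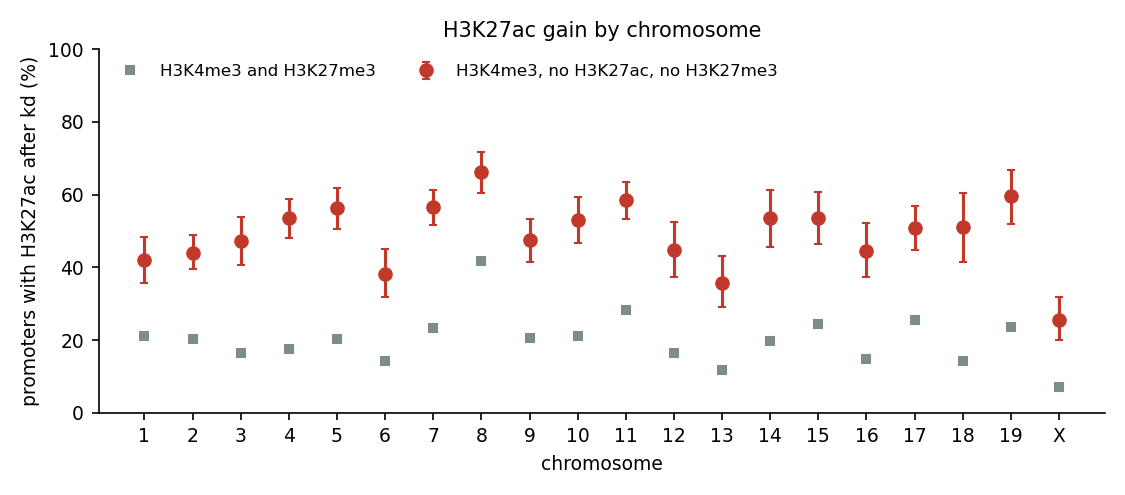
Share of promoters with H3K27ac after Smarcb1 kd (y axis, %) by chromosome (x axis). Red circles with 95% Wilson intervals are the class described here, and grey squares the promoters with H3K4me3 and H3K27me3 in control; chromosome 8 (66.3% and 41.8%) is highest and chromosome X (25.5% and 7.22%) lowest in both.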

How the data were processed

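ChIP-seq had been made in 81K1 cells with 5 antibodies in 2 conditions. Per the study's methods and the submitters' processing notes, reads were trimmed (Trim Galore), aligned to mm10 (Bowtie2), filtered for unique mapping (SAMtools 1.9) and called with MACS2 (Smarca4, Ezh2) or SICER (histone marks, window 200 bp, gap 600 bp). The authors deposited MACS2 peaks with a score, at least 13, which is a rescaled −log10 value, and SICER islands with a p-value, at most 1e-05 for H3K27ac and 1e-10 for the other marks. Inputs are named as background in the methods, while peak names and labels name IgG. The methods give only an approximate depth, stated for the H3K27ac, H3K4me3 and Ezh2 libraries. No counts are given, so the reads behind each list are unknown.

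Regions were intersected with TSS ± 1 kb of GENCODE M21 protein-coding genes, 1 outermost TSS per gene, whereas the study used a later release. Where several regions overlapped a window, the one with the lowest p or highest score gave the value. Gained means called after kd but not in control, lost the reverse. Shares carry 95% Wilson intervals (statsmodels 0.14.6, Python 3.11.15), which cover counting error only; no test between conditions was made. CpG ratio, GC and repeat content came from the GRCm38.p6 window. The overlap step was tested on simulated data and found 100% of the planted calls.

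The class and the gene lists were chosen with earlier results of these data known. Named genes were the 10 gains of H3K27ac with the lowest p, 5 each for H3K27ac gained with H3K4me3 lost, Smarca4 after kd only, Smarca4 in control only, H3K27me3 gained, Ezh2 after kd only and Ezh2 in control, up to 4 gaining genes per list in alphabetical order, and genes the study names. Sequences were those of the 3 gaining promoters with the lowest p and the 3 widest H3K4me3 islands without gain; the sequence of 4930467E23Rik, which nearly repeats that of Gm15319, is not shown. Alternatives were other windows and overlaps, stricter thresholds, lists of equal length, regions in repeats left out, chromosomes 8 and X left out, merged windows and all transcripts' TSS.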

Additional observations from a re-analysis of the deposited data

How the results depend on the processing

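The class held 4114 to 6166 promoters over the alternatives. The share with gained H3K27ac lay between 48.5% and 51.2% with other windows and overlaps, without regions in repeats, without chromosomes 8 and X, with merged windows and with every transcript's TSS. It was 40.0% with stricter thresholds in all lists (all promoters without H3K27ac in control, 16.5%) and 39.1% with lists of equal length. With the kd islands limited to p of at most 1e-10, chosen after seeing the data, it was 32.3% (all promoters, 12.5%). Smarca4 in control was called at 86.7% with stricter thresholds, 90.2% with lists of equal length and 92.1% without chromosomes 8 and X, against 91.1%. H3K27me3 or Ezh2 after kd was called at 4.35%, and at 3.0% with TSS ± 500 bp, 5.59% with TSS ± 2 kb, 3.78% with an overlap of at least 200 bp, 3.10% with stricter thresholds and 5.25% with lists of equal length. The cause of these differences was not tested. The class given by the same rule in the kd lists had H3K27ac in control in 10.6% with lists of equal length, in 4.60% with stricter thresholds and in 560 of 4307 (13%) with kd islands at p of at most 1e-10, against 7.82%. No paired analysis was possible because each antibody and condition had 1 library, and for the same reason no replicate could be left out. The exact number of reads behind each list is unknown, and no count limits could be given.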

Other observations

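Chromosomes 8 and X, the extremes of H3K27ac gain, also differed in their share of the called regions. Chromosome 8 held 4.78% of all promoters, 4.68% of the H3K27me3 islands in control and 7.38% after Smarcb1 kd, and 8.53% and 6.0% of the Ezh2 peaks. Its share of the H3K27ac islands was 6.27% in control and 6.40% after kd. Chromosome X held 4.36% of all promoters, but 1.98% of the Smarca4 peaks in control and 2.98% after kd, and 8.12% and 6.94% of the H3K27ac islands. Of the H3K4me3 promoters on chromosome X, 49.8% belonged to the class without H3K27ac and H3K27me3, the largest share of the 20 chromosomes.

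Of the 3016 promoters that met the same rule in the lists after kd, 472 (15.6%; 14.4 to 17.0) had carried H3K27me3 in control, beside 11.6% of all 15359 promoters without H3K27me3 after kd. In the other direction, 199 (4.13%) of the 4823 promoters carried H3K27me3 after kd, beside 3.72% of all promoters without it in control.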
